A study of Mus musculus with 6 samples.

Results

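The miR-23, miR-27 and miR-24 family is encoded by a pair of paralogous clusters, and its 10 mature miRNAs were examined in the nucleus accumbens (NAc), a brain region of reward, of mice trained to prefer a place paired with morphine (conditioned place preference, CPP) and of saline-trained mice. The members were chosen by name, and all 10 were found among the 1364 miRNAs of the deposited table: mmu-miR-23a-3p, mmu-miR-23b-3p, mmu-miR-23b-5p, mmu-miR-27a-3p, mmu-miR-27a-5p, mmu-miR-27b-3p, mmu-miR-27b-5p, mmu-miR-24-3p, mmu-miR-24-1-5p and mmu-miR-24-2-5p. The morphine group held adult male C57BL/6N mice of 7 to 8 weeks that received 10 mg/kg morphine and, in the alternate daily session, saline during 6 days of conditioning. The saline group held mice of the same strain and age that received saline injections. Both groups were tested on day 7, and the NAc was taken 0.5 h after the test. There were 3 libraries per group. The series record counts 6 mice for the 3 samples of a group, or 2 mice per library, while a figure legend of the study describes 1, and core and shell of the NAc were not separated.

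A miRNA hairpin yields a 5p and a 3p strand. One strand, the guide, is loaded into an Argonaute protein and pairs with target mRNAs mainly through its seed, bases 2 to 8, while the other strand, the passenger, is usually degraded. In these clusters the 3p strands are the guides. The clusters are best known from endothelial cells, where miR-23 and miR-27 act in vessel growth, from lipid metabolism, in which miR-27 represses regulators of fat cell formation, and from cell survival and division, which miR-24 affects. The mature miR-24-3p is the same from both clusters, so that only its 5p strands, miR-24-1-5p and miR-24-2-5p, tell the loci apart.

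The sequences are shown because the comparison of the clusters rests on them. They are RefSeq sequences on GRCm38.p6, which matched 9 of the 10 members by name, written 5′ to 3′ with the seed in capitals.
mmu-miR-23a-3p: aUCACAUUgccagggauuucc
mmu-miR-27a-3p: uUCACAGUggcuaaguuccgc
mmu-miR-27b-3p: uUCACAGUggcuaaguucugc
mmu-miR-24-3p: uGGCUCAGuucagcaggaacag
mmu-miR-24-1-5p: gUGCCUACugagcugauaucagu
mmu-miR-24-2-5p: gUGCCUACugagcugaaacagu
mmu-miR-27a-5p: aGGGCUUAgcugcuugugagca
mmu-miR-27b-5p: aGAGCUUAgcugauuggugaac
The 27a and 27b guides share the seed UCACAGU and differ by 1 substitution, C19U, counted from the 5′ end with the base of miR-27a-3p first. The miR-24 passengers share the seed UGCCUAC and their first 16 bases and differ from base 17 on. The passengers of miR-27 differ at 8 of 22 bases, the first being G3A within the seed. A seed could be read for 1089 of the 1364 miRNAs of the table and for 9 members. Among these, 1 miRNA outside the family shared a seed with a member, miR-5124b with miR-24-3p, and it had 1 count in all 6 libraries together. How reads that end before the differing base were assigned is not given in the sources used here, so the split between miR-27a-3p and miR-27b-3p and that between the miR-24 passengers are uncertain to that extent. For miR-23a-3p and miR-23b-3p this could not be checked, since no sequence of miR-23b-3p was matched.

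Positions are those of GRCm38, the build of the annotation used here and not of the deposited table. Mir23a, Mir27a and Mir24-2 lie on the plus strand of chromosome 8 within 404 bases, from 84208518 to 84208921. Mir23a and Mir27a overlap no other gene of GENCODE vM21, and the nearest protein-coding genes are Nanos3 and Zswim4. Mir24-2 overlaps an exon of the lincRNA Gm26532, which does not reach the part of the hairpin that holds both mature strands. Mir23b, Mir27b and Mir24-1 lie on the plus strand of chromosome 13 within 792 bases, from 63300484 to 63301275. This cluster is inside the gene 2010111I01Rik, named Aopep in RefSeq and encoding an aminopeptidase. There Mir23b is intronic and Mir27b and Mir24-1 overlap exons of annotated transcripts, while on the other strand the cluster lies in an intron of Fancc. Opposite the miR-24 hairpins the annotation places Mir3074-2 and Mir3074-1 on the minus strand.

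**Figure D1:**
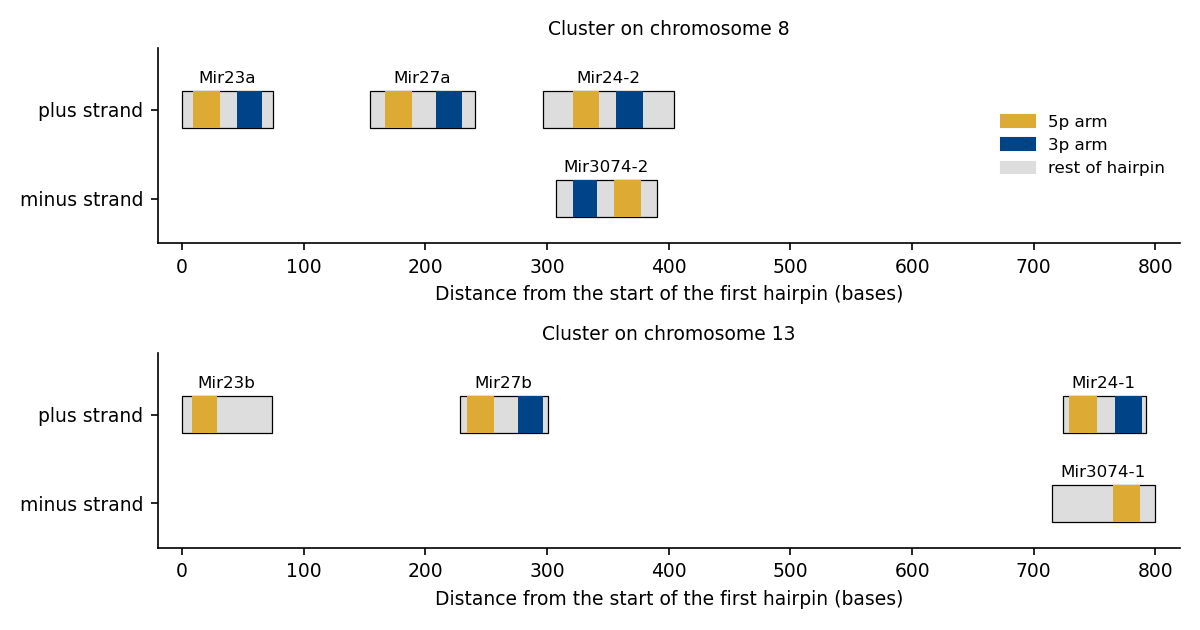
Map of both clusters, with the distance in bases from the start of the first hairpin on the x axis and the strand on the y axis. Grey boxes are hairpins and coloured parts the 5p and 3p arms with a position in the RefSeq table. The chromosome 8 cluster spans 404 bases and the chromosome 13 cluster 792 bases, and a Mir3074 hairpin lies opposite each miR-24 hairpin.

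Total counts ranged from 4183333 to 9842050 per library, and 3 counts, taken as the detection limit, corresponded to 0.305 to 0.717 CPM (each count scaled to the total of its library). Levels are given as CPM after scaling with TMM, a method that sets libraries level on the bulk of their miRNAs, and compare read counts of mature strands, which in the 9 members with a sequence are 21 to 23 bases long. Saline replicate 2 stood apart from saline replicates 1 and 3 over the whole table and, within the family, in the miR-27 guides and the miR-24 passengers. Results that rest on it are given with and without it. Of 5 miRNAs typical of neurons, led by miR-9-5p, all were listed, with a summed level of 127656 to 272558 CPM in the saline libraries and 177274 to 205599 CPM in the morphine libraries.

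Across the family, morphine and saline libraries differed in the passenger strands of miR-24, and no guide strand passed the test. miR-27b-5p, the passenger of miR-27b, met only the unadjusted criteria given below (edgeR adjusted p = 0.169). miR-24-2-5p and miR-24-1-5p rose 8.27-fold and 5.10-fold, while miR-24-3p, the guide of the same hairpins, did not pass the test. The study called a miRNA differentially expressed where its |log2 fold change| reached 0.58 with an unadjusted p no higher than 0.05. By these criteria 2 of the 10 members were upregulated and 1, miR-27b-5p, was downregulated in the morphine group, tested with the quasi-likelihood method of edgeR. Of all 1364 miRNAs tested, 9.68% were upregulated and 9.68% were downregulated by these criteria. With scaling to library totals, 34.9% of all calls were upregulated, against 50% with TMM, and the median log2 fold change of all miRNAs moved from -0.15 to -0.40. The members called were 3 under either scaling. With Benjamini-Hochberg adjustment over all 1364 miRNAs, 2 members were higher at an adjusted p under 0.05 and 0 were lower, against 3.08% and 2.13% of all miRNAs. Values of 3 members did not overlap between the groups, against 22.1% of all miRNAs. For the 5 guides the median log2 fold change was -0.01 and for the 5 passengers 1.17, the latter being that of miR-23b-5p, which lay near the detection limit. Over all miRNAs it was -0.15.

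**Figure D2:**
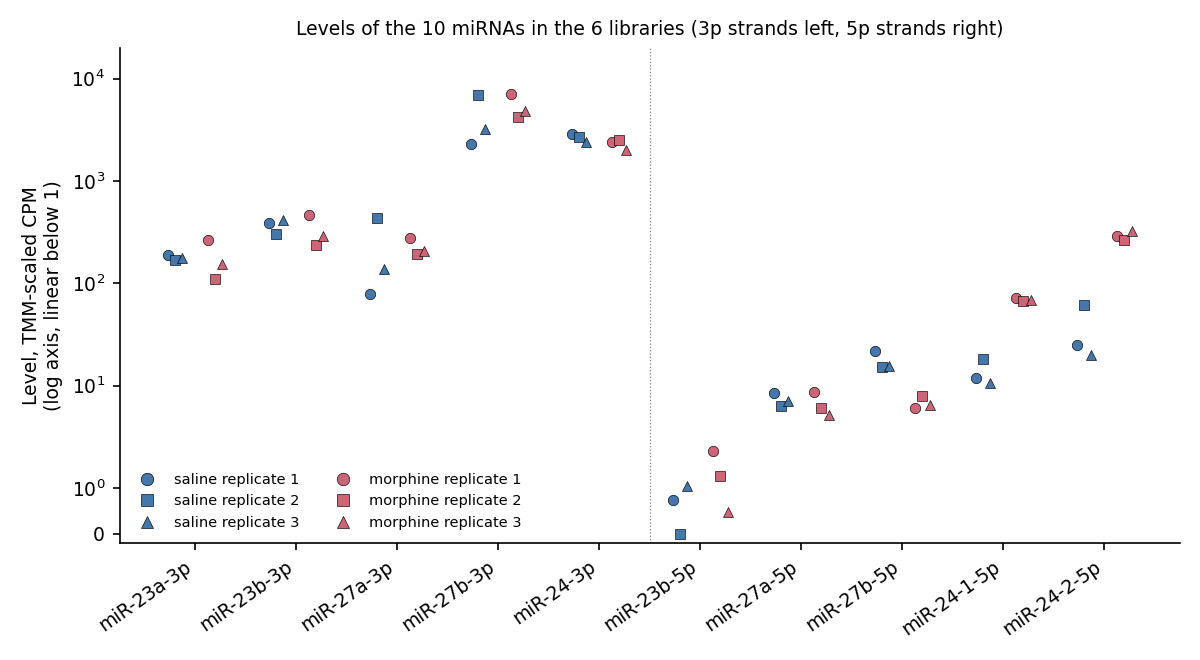
Level of each miRNA in each library in TMM-scaled CPM, on a log axis that is linear below 1, with 3p strands to the left and 5p strands to the right of the dotted line. The 3 morphine libraries lie above all saline libraries for miR-24-1-5p and miR-24-2-5p and below them for miR-27b-5p.

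miR-24-2-5p, the passenger from chromosome 8, gave 136, 413 and 191 counts under saline (replicates 1, 2 and 3, the order kept from here on) and 2638, 1812 and 2077 counts under morphine. In scaled levels it was at 24.9, 61.9 and 20.03 CPM under saline and at 292, 265 and 326 CPM under morphine. Every morphine library was above every saline library, and saline replicate 2 was the highest of the saline libraries. Its level averaged 35.6 ± 22.9 CPM under saline and 294.5 ± 30.4 CPM under morphine (SD, n = 3 each). The log2 fold change of 3.05 ± 0.51 (SE) had an edgeR p of 0.00166 after Benjamini-Hochberg adjustment over all miRNAs, the adjustment meant wherever an adjusted p of edgeR is given. Leaving out saline replicate 2 raised the log2 fold change to 3.72.

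For miR-24-1-5p, the passenger from chromosome 13, there were 65, 122 and 102 counts under saline and 655, 460 and 438 under morphine. Its scaled level was 11.9, 18.3 and 10.7 CPM under saline and 72.5, 67.4 and 68.8 CPM under morphine. Again the groups did not overlap, and again saline replicate 2 was the highest of its group. The mean rose from 13.6 ± 4.09 to 69.5 ± 2.62 CPM (SD, n = 3 each), which is 2.35 ± 0.50 (SE) on the log2 scale (edgeR adjusted p = 0.0101), or 2.62 if saline replicate 2 is left out. Leaving out morphine replicate 1 gave both passengers an adjusted p above 0.05, at 0.0800 for miR-24-2-5p and 0.0960 for miR-24-1-5p with edgeR, with log2 fold changes of 3.16 and 2.43. In that setting 0 of all miRNAs had an adjusted p under 0.05, and 176 had an unadjusted p of at most 0.05 with the fold change required. With a block for the replicate number, miR-24-1-5p had an adjusted p of 0.0535 (edgeR).

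miR-24-3p, the guide shared by both loci, gave 15711, 17991 and 23093 counts under saline and 21883, 17180 and 12652 under morphine. Its level averaged 2665 ± 229 CPM under saline and 2308 ± 283 CPM under morphine (SD, n = 3 each). The groups overlapped, since morphine replicate 2 at 2517 CPM was above saline replicate 3 at 2422 CPM, and the difference of the means was larger than the SD of either group. The log2 fold change was smaller than the SE of the fit, which draws on all miRNAs, at -0.21 ± 0.44 (edgeR adjusted p = 0.799).

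The ratio of both strands within a library does not depend on how libraries are scaled. Per 100 counts of miR-24-3p there were 0.869, 2.30 and 0.829 counts of miR-24-2-5p in saline replicates 1, 2 and 3 and 12.1, 10.55 and 16.4 in morphine replicates 1, 2 and 3. For miR-24-1-5p the same measure was 0.417, 0.681 and 0.444 under saline and 2.995, 2.68 and 3.47 under morphine. Both passengers together made 1.84 ± 0.981 counts per 100 counts of the guide under saline and 16.05 ± 3.44 under morphine (SD, n = 3 each, two-sided exact permutation test, p = 0.1, the smallest that 3 libraries against 3 allow). Since miR-24-3p comes from both loci, each of these ratios sets the passenger of 1 locus against the guide of both.

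Arm ratios were also tested with limma over the 163 hairpins with at least 60 counts on each arm, on log2((5p count + 0.5)/(3p count + 0.5)). The log2 ratio of miR-24-2-5p to miR-24-3p was higher in the morphine group by 3.43 (95% interval 2.21 to 4.65, adjusted p = 0.00720, limma), and that of miR-24-1-5p to miR-24-3p by 2.60 (95% interval 1.74 to 3.45, adjusted p = 0.00705, limma). Of the 4 member pairs that could be fitted, these 2 were higher in the morphine group and 0 were lower at an adjusted p under 0.05, against 9.20% and 9.82% of the 163 pairs. Counted from the largest increase of the 5p share, the miR-24-2-5p difference stood in place 5 and the miR-24-1-5p difference in place 13 among the 163, which ran from -4.50 to 5.83 with a median over all pairs of -0.03. Arm ratios of 3 member pairs did not overlap between the groups, but neither did those of 46.6% of all pairs. miR-23b-5p, with 47 counts in total, fell below the minimum.

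**Figure D3:**
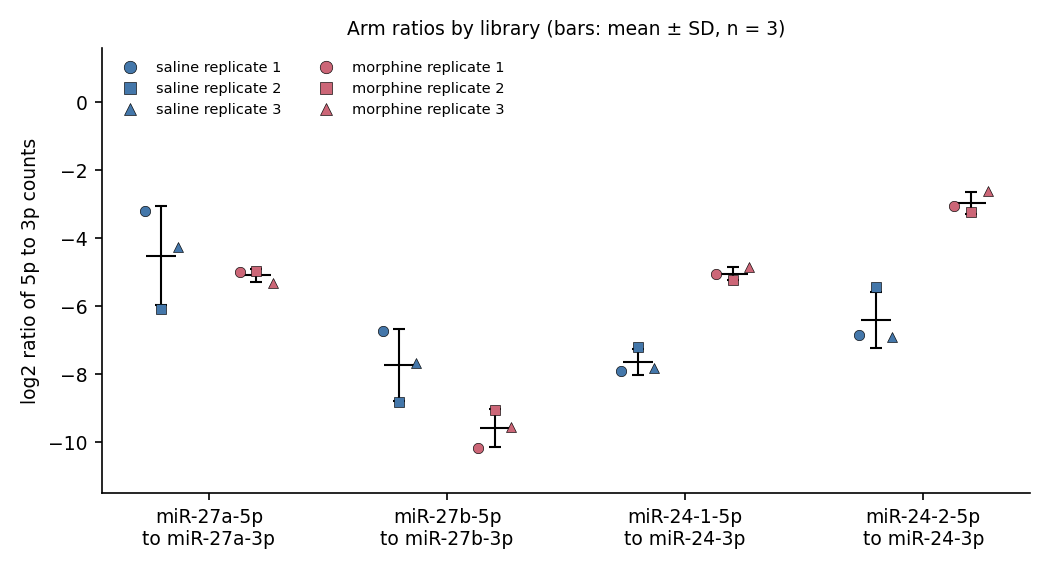
Log2 ratio of 5p to 3p counts in each library for the 4 member hairpins, with points for libraries and bars for the mean ± SD (n = 3). Both miR-24 ratios are higher in all morphine libraries, by means of 2.60 and 3.43, and the miR-27b ratio is lower in all of them.

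In miR-27b the passenger went the other way. miR-27b-5p gave 118, 101 and 150 counts under saline and 55, 54 and 41 under morphine, or 21.6, 15.1 and 15.7 CPM against 6.08, 7.91 and 6.44 CPM. All morphine libraries were below all saline libraries. Its mean went from 17.5 ± 3.57 down to 6.81 ± 0.969 CPM (SD, n = 3 each), and its log2 fold change, -1.36 ± 0.55 (SE), met the criteria of the study with an unadjusted edgeR p of 0.0240, while the adjusted p was 0.169. The call by these criteria was lost with the replicate block and without saline replicate 1 or any 1 of morphine replicates 1, 2 and 3, with log2 fold changes of -1.07 to -1.46 in those settings. Leaving out saline replicate 2 gave -1.45 with an edgeR adjusted p of 0.00200.

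miR-27b-3p, the guide of this hairpin and the most abundant member, gave 12458, 45964 and 30486 counts under saline and 64315, 29055 and 30893 under morphine. In scaled levels these were 2280, 6893 and 3197 CPM against 7115, 4257 and 4851 CPM, so that saline replicate 2 lay within the range of the morphine libraries and the other saline libraries below it. Over all libraries it differed by 0.39 ± 0.49 (SE) on the log2 scale (edgeR adjusted p = 0.645). With saline replicate 2 left out this became 0.98, at an edgeR adjusted p of 0.000253, a setting in which 37.0% of all miRNAs met the criteria of the study and 5 of the 10 members did. The log2 arm ratio of miR-27b was lower in the morphine group by a difference of -1.86 (95% interval -3.37 to -0.35, adjusted p = 0.0753, limma), and without saline replicate 2 by -2.40 (adjusted p = 0.00772, limma). How many of all arm pairs passed without that library was not counted, so the lower p cannot be read as particular to miR-27b.

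miR-27a-3p, which carries the same seed as miR-27b-3p, was at 78.0, 431 and 137 CPM under saline and at 275, 192 and 209 CPM under morphine. Saline replicate 2 had the highest level of all 6 libraries and the other saline libraries the lowest. Over all libraries the difference was 0.07 ± 0.55 (SE) on the log2 scale (edgeR adjusted p = 0.969). Its sign turned with scaling to library totals (-0.0458) and to the upper quartile (-0.0840). With saline replicate 2 left out it was 1.07 (edgeR adjusted p = 0.00130), and miR-27a-3p and miR-27b-3p were the members that gained a call there. Its passenger miR-27a-5p had 46, 42 and 67 counts against 78, 41 and 33, and its log2 fold change, -0.13 ± 0.59 (SE, edgeR adjusted p = 0.917), was within the replicate spread. The log2 arm ratio of miR-27a differed by -0.58 (95% interval -2.36 to 1.20, adjusted p = 0.634, limma), and without saline replicate 2 by -1.36 (adjusted p = 0.0268, limma). The same limit as for the miR-27b arm ratio holds for that last p.

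The miR-23 strands did not pass any of these tests. miR-23a-3p was at 189, 167 and 175 CPM under saline and at 264, 111 and 154 CPM under morphine, and morphine replicates 1 and 2 held the highest and the lowest level. The log2 difference was -0.01 ± 0.48 (SE, edgeR adjusted p = 0.998). miR-23b-3p was at 391, 300.3 and 414 CPM against 470, 236 and 289 CPM, with the same libraries at the extremes of the range and a log2 difference of -0.15 ± 0.47 (SE, edgeR adjusted p = 0.860). miR-23b-5p had 4, 0 and 10 counts against 21, 9 and 3, near the detection limit, for which the fit gave 1.17 ± 1.01 (SE) on the log2 scale (edgeR adjusted p = 0.544). This value ranged from 0.62 without saline replicate 2 to 2.001 without saline replicate 3, and was 0.67 without morphine replicate 1. Its partner from chromosome 8, miR-23a-5p, had 2 counts in all libraries together, too few for a fold change.

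**Figure D4:**
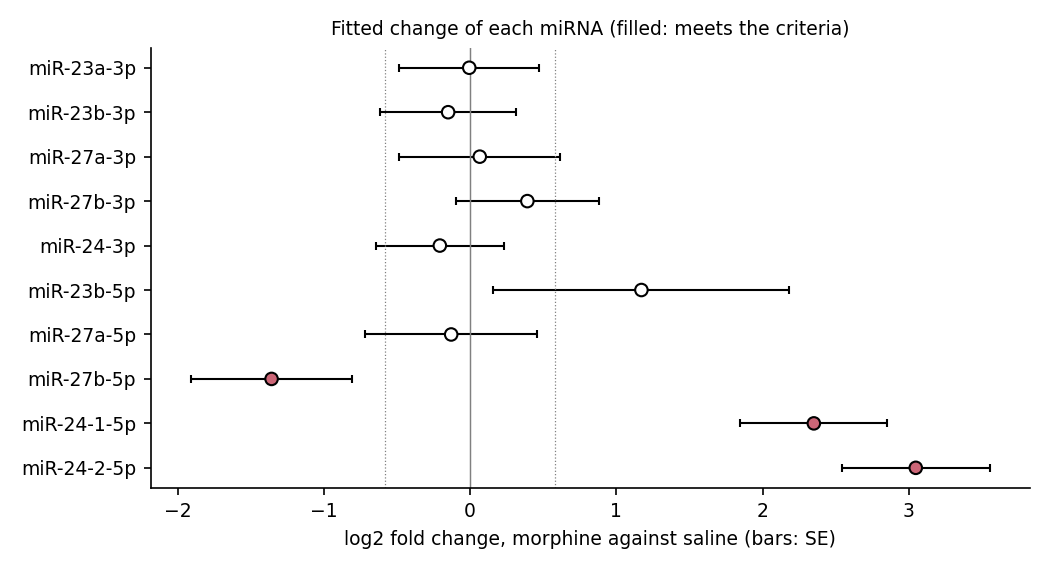
Log2 fold change of each miRNA between the morphine and saline groups from edgeR, with bars for the SE and dotted lines at -0.58 and 0.58. Filled points met the criteria of the study: miR-24-2-5p and miR-24-1-5p at 3.05 and 2.35, and miR-27b-5p at -1.36.

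The order of levels was led by the same guides in both groups. In the saline group miR-27b-3p (4124 ± 2442 CPM, SD over 3 libraries) was followed by miR-24-3p, and the ranges of these overlapped. Next, with no overlap with miR-24-3p, came miR-23b-3p (368 ± 59.9 CPM), miR-27a-3p (215 ± 189 CPM) and miR-23a-3p (177 ± 10.7 CPM). Among these, neighbours in the order overlapped. All 5 guides lay above the passengers in the saline group. In the morphine group miR-27b-3p was above miR-24-3p in all 3 libraries with no overlap, and miR-24-2-5p, at 294.5 CPM, had moved among the guides, between miR-23b-3p and miR-27a-3p, with ranges that overlapped both. miR-24-1-5p stood below miR-23a-3p and above miR-27b-5p with no overlap with either in the morphine group, whereas in the saline group its range overlapped that of miR-27b-5p. miR-27b-5p and miR-27a-5p overlapped in the morphine group and did not in the saline group. miR-23b-5p was lowest in both groups. Together the members took 0.665% to 1.003% of the counts of a library.

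Between the clusters, the ratios of the paralogous guides overlapped between the groups. miR-23a-3p had 0.483, 0.558 and 0.423 counts per count of miR-23b-3p in saline replicates 1, 2 and 3 and 0.561, 0.469 and 0.533 in morphine replicates 1, 2 and 3. The log2 ratio was -1.04 ± 0.20 under saline and -0.94 ± 0.13 under morphine (SD, n = 3 each, two-sided exact permutation test, p = 0.6, adjusted p = 0.9 over the 3 paralog ratios). miR-27a-3p had 0.0342, 0.0625 and 0.0429 counts per count of miR-27b-3p under saline and 0.0387, 0.0451 and 0.0431 under morphine, and the groups overlapped (exact permutation test, p = 0.9, adjusted p = 0.9). The locus-specific miR-24 passengers differed more. There were 2.08, 3.38 and 1.87 counts of miR-24-2-5p per count of miR-24-1-5p under saline and 4.03, 3.94 and 4.74 under morphine, so that every morphine library was above every saline library. The log2 ratio was 1.24 ± 0.45 under saline and 2.08 ± 0.15 under morphine (SD, n = 3 each), a difference of 0.84 that reached the smallest p the design allows (exact permutation test, p = 0.1) and had an adjusted p of 0.3 over the 3 ratios. Of both passengers together, miR-24-2-5p made 67.7%, 77.2% and 65.2% under saline and 80.1%, 79.75% and 82.6% under morphine.

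Within each cluster, the ratio of miR-27 to miR-23 varied between libraries in step at both loci. miR-27b-3p had 5.83, 22.9 and 7.73 counts per count of miR-23b-3p in saline replicates 1, 2 and 3 and 15.15, 18.0 and 16.8 in morphine replicates 1, 2 and 3. For miR-27a-3p and miR-23a-3p this ratio was 0.414, 2.58 and 0.783 under saline and 1.04, 1.73 and 1.36 under morphine. At both loci saline replicate 2 was highest, the morphine libraries followed and saline replicates 1 and 3 were lowest. The groups overlapped through saline replicate 2, and the log2 ratio differed by 0.71 at chromosome 13 and by 0.52 at chromosome 8 (exact permutation tests, p = 0.4 and p = 0.6, both with an adjusted p of 0.6). With saline replicate 2 left out these differences were 1.31 and 1.24, for which no test was made. This ratio was chosen after its values were seen. The uncertain split of reads between miR-27a-3p and miR-27b-3p, stated with the sequences, applies to the likeness of both loci.

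**Figure D5:**
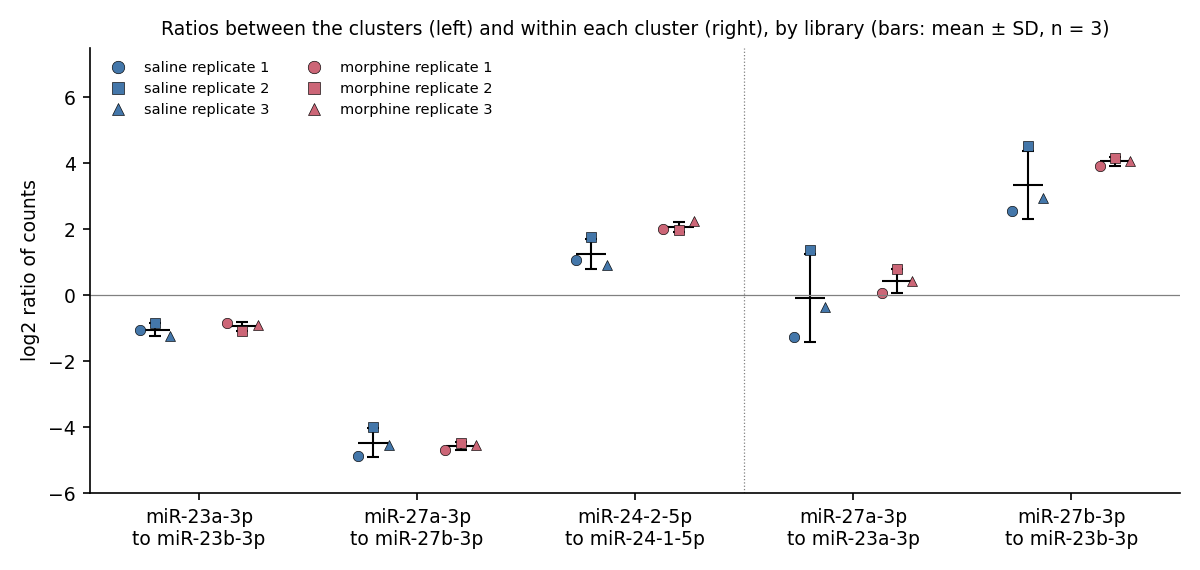
Log2 ratio of counts in each library, between the clusters to the left of the dotted line and within each cluster to the right, with bars for the mean ± SD (n = 3). The ratio of miR-24-2-5p to miR-24-1-5p is higher in all morphine libraries, while both ratios of miR-27 to miR-23 overlap through saline replicate 2.

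The opposite-strand miR-3074 entries had counts close to those of miR-24. RefSeq places miR-3074-2-3p on the minus strand over 20 of the 22 bases of miR-24-2-5p, and miR-3074-5p over 20 of the 22 bases of miR-24-3p. The sequence of the former is shown for comparison with the reverse complement of miR-24-2-5p.
mmu-miR-3074-2-3p: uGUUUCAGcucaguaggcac
The count of miR-3074-2-3p was 97.8% to 100% of that of miR-24-2-5p over the 6 libraries, and that of miR-3074-5p was 99.7% to 99.8% of that of miR-24-3p. For miR-3074-1-3p and miR-24-1-5p the share was 98.5%, 91.8% and 100% under saline and 72.7%, 73.9% and 58.45% under morphine. Whether the counting kept strands apart is not given in the sources used here, so reads of the miR-24 strands and of their opposite-strand partners cannot be told apart. The log2 fold changes were 3.07 ± 0.51 (SE, edgeR adjusted p = 0.00166) for miR-3074-2-3p, 1.86 ± 0.51 (SE, edgeR adjusted p = 0.0408) for miR-3074-1-3p and -0.21 ± 0.44 (SE, edgeR adjusted p = 0.799) for miR-3074-5p. Without these entries in the table, the log2 fold changes of miR-24-2-5p and miR-24-1-5p were 3.12 and 2.42.

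Of the 597 other miRNAs with at least 60 counts in total, those with the highest Pearson correlation with miR-24-2-5p in log2(CPM + 1) were miR-3074-2-3p (r = 0.99998), miR-126b-5p (r = 0.996) and miR-148a-3p (r = 0.996), over 6 libraries that share the group difference. miR-126b-5p had 8, 66 and 15 counts under saline and 1734, 924 and 1006 under morphine, with saline replicate 2 again the highest of its group. For miR-24-3p the closest were miR-3074-5p (r = 0.99999), miR-541-5p (r = 0.839) and miR-150-3p (r = 0.788). Among the members themselves, the level of miR-27a-3p followed that of miR-27b-3p (r = 0.961), that of miR-23a-3p followed miR-23b-3p (r = 0.918), and that of miR-24-1-5p followed miR-24-2-5p (r = 0.993). The limits on telling these paired strands apart, stated with the sequences, apply here too.

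Marker miRNAs of other cell types were summed per library, and the count of each list called by the criteria of the study is to be read against the 9.68% of all miRNAs called in each direction. Saline replicate 2 was the highest saline library for the endothelial, neuron, mural and fibroblast, and microglia and leukocyte lists, as for the miR-24 passengers and the miR-27 guides. It was not the highest for the oligodendrocyte, erythroid and choroid plexus lists. The endothelial pair miR-126a-3p and miR-126a-5p summed to 1633, 5002 and 1485 CPM in saline replicates 1, 2 and 3 and to 16264, 14524 and 10984 CPM in the morphine libraries. Of the 2, 1, miR-126a-3p, was called, upwards. The sum was almost wholly that of miR-126a-3p, while mmu-miR-126a-5p was at 22.9, 317 and 30.5 CPM under saline and 96.2, 41.9 and 52.3 CPM under morphine, with a log2 fold change of -0.96 (SE 0.71, edgeR adjusted p = 0.522). The list of 5 for microglia and blood leukocytes, led by miR-146a-5p, summed to 157 to 275 CPM against 858 to 1072 CPM, with 1 called upwards. Erythroid markers, led by miR-451a, summed to 216 to 312 CPM against 360.3 to 572 CPM, with 1 of 4 called upwards and miR-144-3p at 0 counts in some libraries. The choroid plexus and ependyma list, led by miR-204-5p, summed to 1948 to 2768 CPM against 941 to 994 CPM, with 1 of 5 called downwards and miR-34b-5p at 0 counts in some libraries. Sums of the oligodendrocyte list (2052 to 2183 against 1815 to 2290 CPM, 1 of 4 called downwards), the list of 6 for mural cells and fibroblasts (7165 to 18998 against 5780 to 13905 CPM, 1 called upwards) and the neuron list (1 of 5 called downwards) overlapped between the groups. For the neuron list this was through saline replicate 2 alone. Its sums were 142624, 272558 and 127656 CPM in saline replicates 1, 2 and 3. In morphine replicates 1, 2 and 3 they were 182476, 177274 and 205599 CPM, above saline replicates 1 and 3. The part of these cell types in the results was not tested, and in bulk tissue fewer cells of a type and less RNA per cell cannot be told apart.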

How the data were processed

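The authors discarded reads with adapters, with poly-N or of low quality and kept those of 15 to 35 nt, filtered the rest against ribosomal, transfer and other ncRNAs and repeats with Bowtie, and compared them with miRBase. They deposited raw read counts per mature miRNA and library, not pooled, and TPM, which equals each count scaled to the total of its library (CPM) with no term for length and entered no test. The aligner to miRBase, its release and the genome build are not given in the sources used here. Groups and replicate numbers came from the sample titles (0 columns not used), and no pair of replicates had counts equal within sampling noise.

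Counts were scaled with TMM (factors 0.80 to 1.32) and tested with edgeR 4.0.16 in R 4.3.3 over all 1364 miRNAs with at least 1 count, without covariates. Arm ratios (5p and 3p rows of the same name, and each miR-24 passenger against miR-24-3p) were tested with limma 3.58.1, and other ratios with exact permutation tests. The members, lists and tests were chosen with earlier results of these data known. Named miRNAs were the members, the other miRNAs of both loci, those with a shared seed, the 3 most like miR-24-2-5p and miR-24-3p, and list leaders. Marker lists were given as counts and sums. Both fits were tested on simulated data. With edgeR, 57% of miRNAs given a log2 fold change of 2 and 96.5% of those given 3 had an adjusted p under 0.05. With limma, 82.5% of arm ratios given a difference of 3 did. A member that did not pass can therefore still have changed. In the edgeR simulation, changes were given only to miRNAs well above the detection limit, so miR-23b-5p was not covered. Simulated counts were drawn independently for each miRNA, so no library stood apart as saline replicate 2 did. The series record and a figure legend differ on the number of mice per library, and p-values measure the spread between these libraries. Limits at 3 counts cover counting error only, since PCR reads without molecular identifiers are not independent molecules. Alternatives were 3 other scalings, DESeq2 1.42.0, count filters, leaving out the 10 miRNAs with most counts, thinning to the smallest library, other pseudocounts, arm minimums of 10 and 300 counts, the replicate block, leaving out each library and, added after seeing the data, removal of the miR-3074 entries.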

Additional observations from a re-analysis of the deposited data

How the results depend on the processing

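The members called by the criteria of the study were 2 to 5 when 1 library was left out, with 5 without saline replicate 2, and 2 or 3 in all other settings. Members at an adjusted p under 0.05 were 0 to 5 when 1 library was left out. There were 5 without saline replicate 2, where 386 of 1328 miRNAs passed, and 0 without morphine replicate 1, where 0 of all miRNAs passed. With DESeq2 there were 3, where 156 of 1364 miRNAs passed, against 71 in the main fit. With the replicate block there was 1, where 32 of 1364 miRNAs passed. The block gave 179 calls by the criteria of the study among all miRNAs against 264. Deviations of same-numbered libraries correlated at -0.23, -0.28 and 0.14, so the numbers were not taken to pair the libraries. Without saline replicate 2, 492 of all miRNAs met the criteria. miR-24-2-5p and miR-24-1-5p kept their direction and their call by the criteria in every setting run, with log2 fold changes of 2.85 to 3.72 and 2.28 to 2.62 when 1 library was left out. Member arm pairs at an adjusted p under 0.05 were 2 to 4, with 4 without saline replicate 2. The share of all arm pairs that passed in that setting was not counted, so the 4 cannot be read as a result about these members. Signs turned for values near 0: miR-27a-3p at library totals (-0.0458) and the upper quartile (-0.0840), miR-27a-5p after thinning (0.0582), and miR-23a-3p without the miR-3074 entries (0.0409). With 1 library left out, log2 fold changes ran from -0.33 to 0.26 for miR-23a-3p, -0.39 to 0.0684 for miR-23b-3p, -0.23 to 1.07 for miR-27a-3p and -0.27 to 0.0831 for miR-27a-5p, and the arm ratio difference of miR-27a from -1.36 to 0.0842. The paralog difference of miR-27 ran from -0.29 to 0.14, positive only without saline replicate 2, and the miR-27a to miR-23a difference from -0.0748 to 1.24, negative only without saline replicate 1. The other paralog, within-cluster and arm ratio differences kept their sign with 1 library left out. The cause of these shifts was not tested.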
